A study of Mus musculus with 12 samples.

Results

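Intraflagellar transport (IFT) genes, BBSome genes and transition zone genes build and maintain cilia, and 37 of them were followed here through adult ependymal cells, embryonic radial glia and cultured neurospheres of C57Bl/6 mice. They were taken as a named list and read through the gene symbols of the array's probes. The list held 13 genes of the IFT-B complex, 4 of the IFT-A complex, 9 of the BBSome and its assembly chaperonins, 5 of the transition zone, 3 ciliary GTPases and 3 parts of the kinesin-2 motor. Of the 17711 genes named on the array, 33 were on the list, with 63 probes between them, and 31 of these passed the detection filter and were tested.

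IFT trains carry cargo along the microtubules of a cilium: kinesin-2 moves them with the IFT-B complex towards the tip, and dynein-2 moves them back with the IFT-A complex. The BBSome is a coat-like complex that rides on these trains and moves membrane proteins in and out of the cilium, and the transition zone is the gate at its base. Both the single primary cilium, a signalling antenna found on most cells including radial glia, and the motile cilia of ependymal cells use this machinery.

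The 4 groups had 3 arrays each. Ependymal cells line the ventricles and the central canal; they came from adult mice, from the wall of the lateral ventricle (LVW) or from the spinal cord (SC), and were sorted for CD133 and CD24 with CD45 and CD34 gated out. Radial glia came from the forebrain at embryonic day 14.5 and were sorted for CD133, with CD24, CD45 and CD34 gated out, so they differ from both ependymal groups in age and gate, and from SC also in region. Neurospheres were grown in culture from the SC ependymal cells of adults, without a sort of their own. The submitters describe the arrays of a group as independent biological replicates, and whether animals were pooled is not given in the sources used here. No group carried a transgene or a treatment in the labels.

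The 12 arrays differed in how much they detected. Neurosphere replicate 3 detected 16175 of 46632 probes and the other 11 arrays between 10742 and 13487, so results for neurospheres are also given without it. LVW replicate 1 stood apart for Ift46 and Rpgrip1l, which it alone of the 6 ependymal arrays did not detect. The 5 ependymal markers on the array gave a summed normalised signal of 35547 to 42197 in LVW, 40144 to 43792 in SC, 1195 to 3252 in radial glia and 223 to 384 in neurospheres. Other cell types also separated the groups. The 5 choroid plexus markers were detected on all 3 radial glia arrays, with a summed signal of 16908 to 23339, against 3802 to 6285 in LVW, 799 to 1195 in SC and 151 to 238 in neurospheres. Ttr, a defining marker of the choroid plexus, was not detected on any LVW, SC or neurosphere array. The log2 difference of LVW from radial glia was -8.94 for Ttr and -1.34 for Otx2. It was 0.12 for Clic6, 0.15 for Sostdc1 and 1.46 for Folr1, so the lower LVW sum was not shared by all 5 markers. The 5 tested endothelium and pericyte markers summed to 9481 to 14559 in radial glia and to at most 968 in any other array, although Pecam1 was not detected in radial glia. For LVW minus radial glia, the log2 difference was -7.75 for Kcnj8, -5.90 for Pdgfrb and -6.82 for Rgs5. It was 1.15 for Cldn5 and 0.31 for Kdr, so the higher radial glia sum was not shared by all 5 markers. The 4 oligodendrocyte markers were uneven in SC, from 1538 to 17095, with Mog not detected there, and lay between 4848 and 12397 in LVW, 167 and 223 in radial glia and 293 and 453 in neurospheres. The 4 astrocyte markers spanned 10669 to 15034 in LVW, 6864 to 11621 in SC, 872 to 1356 in radial glia and 7554 to 11632 in neurospheres. Gfap was not detected on any neurosphere array, and neither Gfap nor Aqp4 on any radial glia array. For neurospheres minus SC, the changes of these markers ran from -2.33 to 3.58, so the similar sums hide opposite changes. The 5 neuron markers reached 2218 to 2777 in radial glia and at most 620 in the other groups. For SC minus radial glia, the log2 difference was -4.83 for Dcx and -5.67 for Neurod2. It was 1.08 for Stmn2, 0.14 for Snap25 and 0.00013 for Tubb3, so the lower SC sum was not shared by all 5 markers. None of the 4 microglia markers on the array was kept. The part of these cells in the results below was not tested. In bulk RNA, fewer cells of a type and less RNA per cell cannot be told apart.

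All levels below are quantile normalised log2 signals, changes are differences of group mean log2 signals with the standard error (SE) of the limma fit, and a gene is called when its Benjamini-Hochberg adjusted p over all 9526 tested genes is under 0.05. A level cannot be set against that of another gene, because each rests on its own probe. The median level of the 31 tested genes was 10.03, 9.79 and 10.17 on the LVW arrays, 9.48, 9.96 and 10.09 on the SC arrays, 8.20, 8.03 and 8.37 on the radial glia arrays, and 8.17, 7.87 and 7.87 on the neurosphere arrays. Every ependymal array thus stood above every radial glia and neurosphere array. Of the 31 genes, 22 were detected on all 12 arrays, and 27 on all 6 ependymal arrays. Radial glia detected Ift80 on 2 arrays, Ift22 and Ttc30b on 1 array each, and Ift74 and Ttc26 on none.

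**Figure D1:**
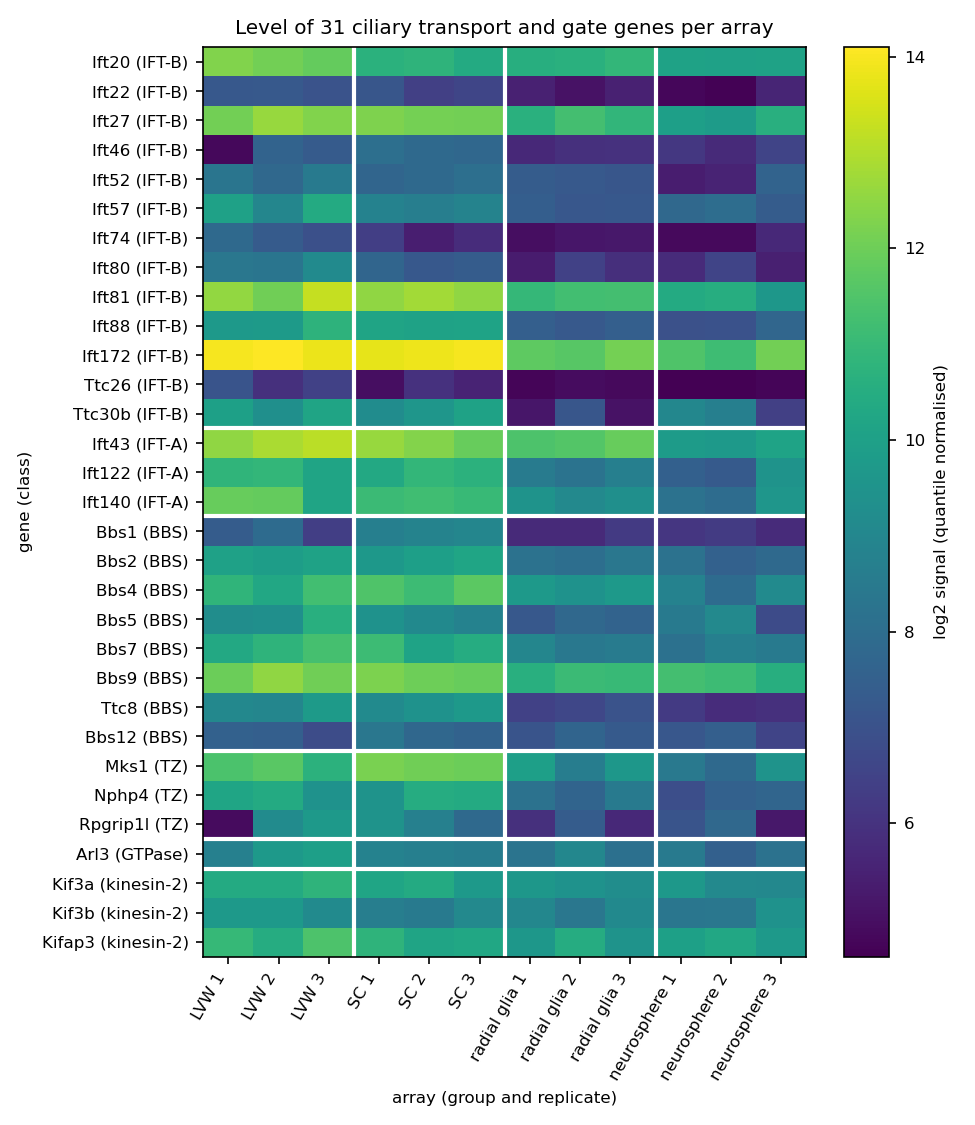
Level of each of the 31 tested genes (vertical axis, ordered by class, TZ for transition zone) on each of the 12 arrays (horizontal axis), as a colour scale of quantile normalised log2 signal. Most genes are brighter on the 6 ependymal arrays at the left than on the radial glia and neurosphere arrays at the right, and Ift46 and Rpgrip1l are dark on LVW replicate 1; colours compare arrays within a gene, not genes.

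The comparison of each ependymal group with radial glia asks how the adult ciliated cells differ from the embryonic cells. In LVW, 25 of the 31 genes were higher than in radial glia and 0 were lower, where 16.7% of all tested genes were higher and 19.7% lower. In SC, 19 were higher and 0 lower, where 14.8% of all genes were higher and 17% lower. At an unadjusted p under 0.05, the limma fit also gave 0 lower genes in either comparison, and 26 and 21 higher. The share of all tested genes at that unadjusted limit was not counted, here or in the comparisons below. The median change was 1.64 in LVW, or 1.58 with genes undetected in radial glia set at their lower bounds, and 1.56 in SC, against -0.19 and -0.14 over all tested genes. In LVW, 27 genes had no overlap with radial glia (22.9% of all genes were higher without overlap), and in SC 25 did (25.6%). Both comparisons use the same 3 radial glia arrays. A gene that passed the detection filter only through the group where it is high had to differ, so these counts describe the tested genes and not the whole list.

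Within IFT-B, the complex of outward transport, 11 of 13 tested genes were higher in LVW and 9 of 13 in SC. Ift88, a core subunit whose mutation causes the Oak Ridge polycystic kidney phenotype in mice, had levels of 9.69, 9.79 and 10.74 in LVW, 10.15, 10.07 and 10.11 in SC, 7.48, 7.26 and 7.49 in radial glia, and 6.97, 7.01 and 7.76 in neurospheres. Its 6 ependymal arrays lay above all other arrays. The change was 2.66 ± 0.34 in LVW (adjusted p = 9.31e-05) and 2.70 ± 0.34 in SC (adjusted p = 9.54e-05), or 6.32-fold and 6.49-fold. In the deposited intensities, Ift88 read 934.8, 976.7 and 2156.2 in LVW, 650.3, 649.1 and 573.7 in SC, and 219, 157.4 and 200.9 in radial glia. Neurospheres read 53.7, 65.7 and 386.6. These intensities are not scaled between arrays, so their ratios differ from the folds above. The mean intensity of an array was 169.5 to 194.0 in SC, 360.2 to 375.1 in radial glia and 654.1 on neurosphere replicate 3.

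Ift172, a large subunit at the periphery of IFT-B, had levels of 13.96, 14.10 and 13.81 in LVW, 13.75, 13.86 and 13.97 in SC, 11.74, 11.63 and 12.13 in radial glia, and 11.48, 11.16 and 12.09 in neurospheres. Its ependymal arrays were tightly grouped and did not meet the others. It was higher by 2.13 ± 0.30 in LVW (adjusted p = 0.000195) and by 2.03 ± 0.30 in SC (adjusted p = 0.000312). Ift80, a peripheral subunit that is mutated in a human skeletal ciliopathy, had 8.37, 8.28 and 9.15 in LVW, 7.71, 7.22 and 7.39 in SC, 5.34, 6.43 and 5.88 in radial glia, and 5.78, 6.57 and 5.43 in neurospheres. LVW was highest, SC lay between, and radial glia and neurospheres overlapped. Its change was 2.72 ± 0.40 in LVW (adjusted p = 0.000268) and 1.56 ± 0.40 in SC (adjusted p = 0.0113), where the call was lost without radial glia replicate 1 (adjusted p = 0.0562).

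Ttc30b, the IFT70 subunit, moved most: 10.02, 9.33 and 10.17 in LVW, 9.23, 9.60 and 10.09 in SC, 5.19, 7.16 and 5.09 in radial glia, and 9.01, 8.69 and 6.42 in neurospheres. Radial glia detected it on replicate 2 only, and the neurosphere arrays were split. Its change was 4.02 ± 0.70 in LVW (adjusted p = 0.000878) and 3.82 ± 0.70 in SC (adjusted p = 0.00139), and includes radial glia arrays below detection. Mice have near-identical Ttc30 genes, so the probe may read more than one of them.

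The other called IFT-B genes of LVW were Ift20, Ift22, Ift27, Ift57, Ift74, Ift81 and Ttc26, with changes of 1.39 to 2.52. As radial glia did not detect Ift74 or Ttc26, their folds are bounds: Ift74 was at least 3.45-fold and Ttc26 at least 1.84-fold higher in LVW. In SC, the other called genes were Ift22, Ift27, Ift46, Ift57 and Ift81, with changes of 1.24 to 2.03, and the call of Ift46 was lost when any 1 of the 6 arrays compared was left out (adjusted p of 0.0517 to 0.0672). Ift22 and Ift27 are small Rab-like GTPases of the complex, and Ift81 is, with Ift74, its tubulin-binding pair. Ift52, a core subunit, was called in neither, with 0.93 ± 0.51 (adjusted p = 0.174) in LVW and 0.62 ± 0.51 (adjusted p = 0.388) in SC. Ift46 read 4.80 on LVW replicate 1 and 7.64 and 7.34 on the other LVW arrays, and its LVW change was 0.72 ± 0.60 (adjusted p = 0.378).

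All 3 tested IFT-A genes, which serve return transport and the entry of membrane receptors, were higher in LVW, and 2 of them in SC. Ift122, a core subunit, had 10.81, 10.88 and 10.17 in LVW, 10.35, 10.88 and 10.71 in SC, 8.54, 8.22 and 8.70 in radial glia, and 7.51, 7.29 and 9.47 in neurospheres. Neurosphere replicate 3 was the only neurosphere array above radial glia. The change of Ift122 was 2.13 ± 0.50 in LVW (adjusted p = 0.00615) and 2.16 ± 0.50 in SC (adjusted p = 0.00642). Ift140, another core subunit, had 11.91, 11.87 and 10.17 in LVW, 11.07, 11.19 and 11.00 in SC, 9.50, 9.06 and 9.32 in radial glia, and 8.20, 7.95 and 9.61 in neurospheres. Its ependymal arrays again stood above all others, with changes of 2.03 ± 0.52 (adjusted p = 0.00949) and 1.79 ± 0.52 (adjusted p = 0.0202). The SC call of Ift140 was lost on leaving out SC replicate 1, SC replicate 2, radial glia replicate 2 or radial glia replicate 3 (adjusted p of 0.0504 to 0.0697). Ift43, a small peripheral subunit, had 12.52, 12.88 and 13.13 in LVW, 12.65, 12.34 and 11.89 in SC, 11.44, 11.57 and 11.89 in radial glia, and 9.83, 9.74 and 10.12 in neurospheres. LVW was above radial glia by 1.21 ± 0.30 (adjusted p = 0.00851), SC met it (0.66 ± 0.30, adjusted p = 0.120), and neurospheres were below both. The probe of Ttc21b, the fourth IFT-A gene of the list, was detected on 1 neurosphere array and on no other.

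Among 8 tested genes of the BBSome and its chaperonins, 7 were higher in LVW and 6 in SC. Ttc8, the BBSome subunit also called BBS8, had 9.03, 8.96 and 9.78 in LVW, 9.16, 9.45 and 9.70 in SC, 6.46, 6.64 and 7.02 in radial glia, and 6.23, 5.81 and 5.92 in neurospheres. By this probe the ependymal arrays lay above radial glia and the neurosphere arrays just below them, 1 of them undetected; by the second kept probe of Ttc8, radial glia (6.01, 6.25 and 6.38) and neurospheres (6.29, 6.14 and 6.06) overlapped. Its change was 2.55 ± 0.32 in LVW (adjusted p = 7.16e-05) and 2.73 ± 0.32 in SC (adjusted p = 4.78e-05). Bbs1, the subunit that meets the GTPase Arl6, had 7.36, 7.93 and 6.37 in LVW, 8.72, 8.87 and 8.96 in SC, 5.74, 5.75 and 6.23 in radial glia, and 6.12, 6.27 and 5.76 in neurospheres. SC was highest, LVW lay between with one array near radial glia, and radial glia and neurospheres overlapped. Its change was 1.31 ± 0.38 in LVW (adjusted p = 0.0184) and 2.94 ± 0.38 in SC (adjusted p = 0.000110). The LVW call of Bbs1 was lost in the fit to 6 arrays alone and without LVW replicate 2, radial glia replicate 1 or radial glia replicate 2 (adjusted p of 0.0632 to 0.0677).

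Bbs7, another BBSome subunit, had 10.32, 10.78 and 11.29 in LVW, 11.10, 10.13 and 10.47 in SC, 8.98, 8.40 and 8.56 in radial glia, and 8.15, 8.72 and 8.50 in neurospheres. The ependymal arrays did not meet the others, and the changes were 2.15 ± 0.36 (adjusted p = 0.000627) and 1.92 ± 0.36 (adjusted p = 0.00155). Bbs5, a subunit that binds phosphoinositides, had 9.28, 9.35 and 10.61 in LVW, 9.45, 9.13 and 8.80 in SC, 7.23, 7.83 and 7.64 in radial glia, and 8.50, 9.09 and 6.79 in neurospheres. It was called in LVW (2.18 ± 0.56, adjusted p = 0.00945) and missed the threshold in SC (1.56 ± 0.56, adjusted p = 0.0521), and its neurosphere arrays spread from below radial glia into the SC range. Bbs2, Bbs4 and Bbs9 were called in both groups, with changes of 1.14 to 1.81. The LVW call of Bbs4 was lost without LVW replicate 1, LVW replicate 3 or any 1 radial glia array (adjusted p of 0.0667 to 0.0955), and the SC call of Bbs9 without radial glia replicate 1 (adjusted p = 0.0614). Bbs12, a chaperonin-like protein that helps assemble the BBSome, gave -0.06 ± 0.35 (adjusted p = 0.912) in LVW and 0.58 ± 0.35 (adjusted p = 0.244) in SC, and its groups overlapped.

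Of 3 tested transition zone genes, 2 were called in both groups. Mks1, a B9-domain protein of the gate that is mutated in human Meckel syndrome, had 11.41, 11.66 and 10.71 in LVW, 12.18, 12.05 and 11.98 in SC, 9.96, 8.62 and 9.65 in radial glia, and 8.43, 7.87 and 9.47 in neurospheres. SC was the highest group, followed by LVW, while radial glia and neurospheres overlapped. Its change was 1.85 ± 0.47 in LVW (adjusted p = 0.00875) and 2.66 ± 0.47 in SC (adjusted p = 0.001). Nphp4, of the nephronophthisis module of the gate, had 10.19, 10.41 and 9.44 in LVW, 9.48, 10.49 and 10.41 in SC, 8.20, 7.68 and 8.52 in radial glia, and 6.89, 7.57 and 7.69 in neurospheres. Its ependymal arrays lay above all others, with changes of 1.88 ± 0.40 (adjusted p = 0.00343) and 1.99 ± 0.40 (adjusted p = 0.00264).

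Rpgrip1l, a scaffold of the transition zone, had 4.87, 9.17 and 9.73 in LVW, 9.48, 8.75 and 7.87 in SC, 5.93, 7.39 and 5.72 in radial glia, and 7.09, 7.83 and 5.21 in neurospheres. LVW replicate 1 did not detect it, and within-group spread was wide throughout. The changes of 1.58 ± 1.13 (adjusted p = 0.300) and 2.35 ± 1.13 (adjusted p = 0.138) were not called, although the SC arrays did not meet radial glia. None of the 6 probes of Tmem67 was detected on any array.

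The motor and GTPase genes moved less. Kif3a, a motor subunit of kinesin-2, had 10.42, 10.43 and 10.78 in LVW, 10.19, 10.41 and 9.73 in SC, 9.63, 9.45 and 9.27 in radial glia, and 9.66, 9.08 and 9.05 in neurospheres. It was higher in LVW (1.09 ± 0.30, adjusted p = 0.0135) and was not called in SC (0.66 ± 0.30, adjusted p = 0.116), where the arrays nevertheless lay just above radial glia. The LVW call was lost without radial glia replicate 3 (1.00, adjusted p = 0.0588) and with the mean over kept probes (1.17, adjusted p = 0.0667). It was also lost without LVW replicate 3 (2.01, adjusted p = 0.0602). In that fit the second kept probe had the higher mean and stood for the gene, so the 2.01 is not a reading of the first probe. The second kept probe of Kif3a overlapped between LVW and radial glia (1.25, adjusted p = 0.253). Kifap3, the adaptor of the motor, had 10.95, 10.50 and 11.44 in LVW, 10.78, 10.16 and 10.26 in SC, 9.65, 10.49 and 9.50 in radial glia, and 10.00, 10.29 and 9.76 in neurospheres. Its LVW change of 1.08 ± 0.36 (adjusted p = 0.0361) rested on groups that almost touched, and fell short of the threshold (adjusted p of 0.0706 to 0.137) when replicate 1 or replicate 3 of either group was left out. Kif3b, the partner motor subunit, had 9.74, 9.70 and 9.16 in LVW, 8.67, 8.48 and 9.08 in SC, 9.02, 8.39 and 9.13 in radial glia, and 8.32, 8.38 and 9.46 in neurospheres. It was called in neither group, with 0.69 ± 0.38 (adjusted p = 0.177) in LVW and -0.10 ± 0.38 (adjusted p = 0.865) in SC. Arl3, a GTPase that releases lipid-modified proteins inside the cilium, had 8.75, 9.69 and 9.98 in LVW, 8.81, 8.71 and 8.58 in SC, 8.25, 9.01 and 8.13 in radial glia, and 8.51, 7.51 and 8.19 in neurospheres. Its groups overlapped, and its changes of 1.01 ± 0.40 (adjusted p = 0.0673) and 0.24 ± 0.40 (adjusted p = 0.693) were not called.

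The class medians were 1.82 for IFT-B, 2.03 for IFT-A, 1.56 for the BBSome group, 1.85 for the transition zone and 1.08 for kinesin-2 in LVW, and 1.47, 1.79, 1.77, 2.35 and 0.52 in SC. Differences between classes were not tested. The calls depended on scaling. Median scaling in place of quantile normalisation shifted the median change of all genes by -0.61 in LVW and -0.48 in SC and left 7 and 6 of the genes called. The share of all genes called under median scaling is not given here, so the lost calls are not a result about the list. Relative to all genes, the median of the 31 hardly moved, at 1.83 before and 1.85 after in LVW, and 1.69 before and 1.59 after in SC.

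**Figure D2:**
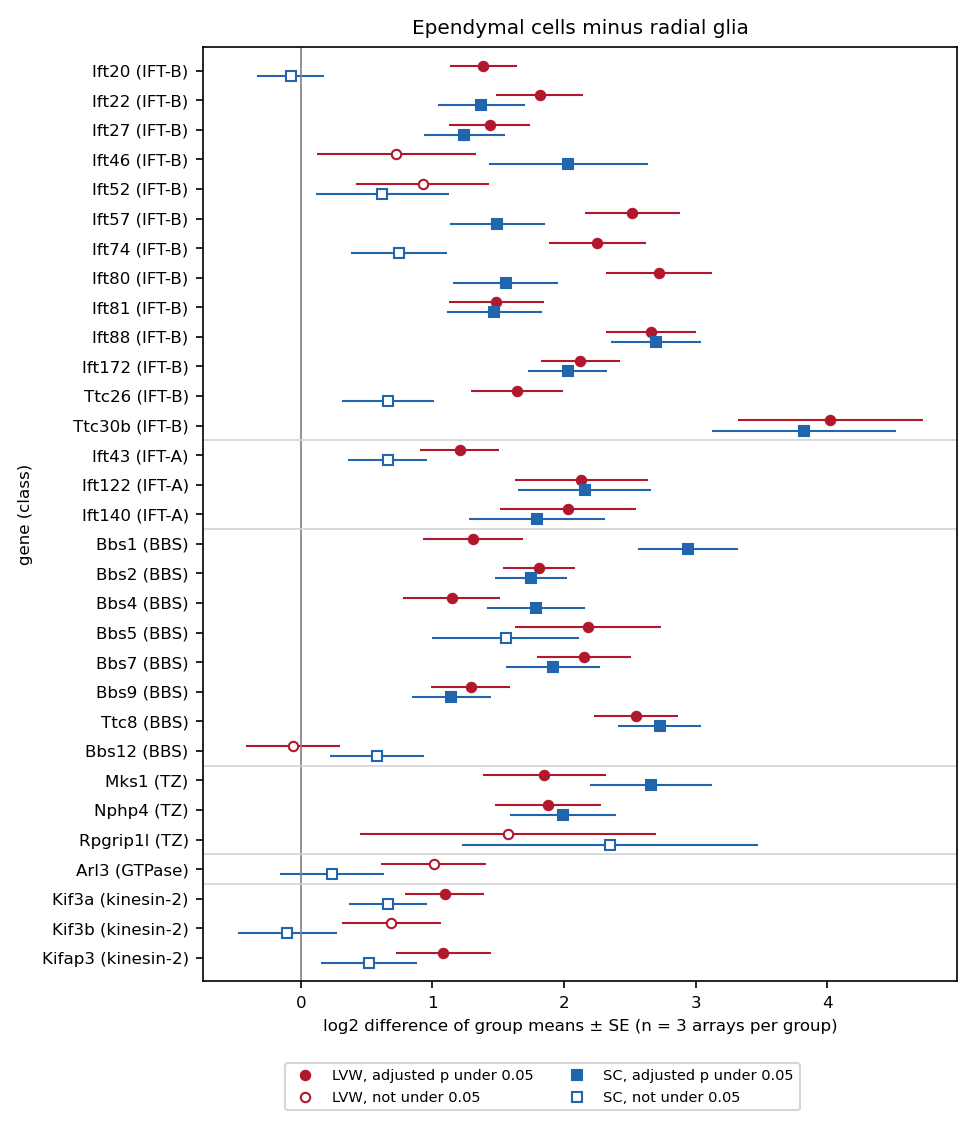
Log2 difference of group means from radial glia with its SE (horizontal axis; n = 3 arrays per group) for each tested gene (vertical axis, by class), with LVW as circles and SC as squares, filled where the adjusted p is under 0.05. 25 LVW and 19 SC points are filled, all to the right of 0; the open SC points of Ift20 (-0.08), Kif3b (-0.10) and Arl3 (0.24) lie nearest to 0.

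Other genes of the same machinery, from lists that did not include the 37, were read the same way. Of 7 tested further IFT and dynein-2 genes, 6 were higher in LVW and 3 in SC, with medians of 1.85 and 1.35. Wdr60, a dynein-2 intermediate chain, was higher by 2.81 ± 0.26 in LVW (adjusted p = 7.08e-06) and by 2.82 in SC. Of 17 further transition zone and ciliary membrane genes, 13 were higher in LVW and 11 in SC, with medians of 1.68 and 1.57. Tctn2, a tectonic protein of the gate, was higher by 2.79 ± 0.38 and 2.85, and B9d1, a B9-domain partner of Mks1, by 2.07 and 2.37. Of 9 further BBS-related genes, only Wdpcp was higher in both groups (2.03 and 1.43), while Rab3ip, an exchange factor for Rab8, was lower by 2.72 in LVW (change -2.72) and by 2.63 in SC (change -2.63), and Mkks and Cct3 were also lower in SC. This list includes general chaperonin subunits, and its medians were -0.37 and -0.78. For comparison, 13 of 15 tested genes of the motile axoneme and its regulators were higher in both groups, with medians of 3.42 and 3.87, against 1.64 and 1.56 for the 31 genes. The difference between these lists was not tested.

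Promoters were searched because many of the genes differed together and because regulatory factor X (RFX) proteins, which drive ciliary genes from worms to mammals, are known to bind X-box sites. RefSeq promoters of GRCm38.p6 (250 bases before to 50 bases after a start) were found for 32 of the 37 genes, in 35 windows. The motif was GTTNCC followed by GGNAAC after a gap of 0 to 3 bases, with at most 1 mismatch, which covers both strands since the motif is its own reverse complement. It was found in 9 of 35 windows (25.7%), against 5.44% of 32851 windows of all genes, and without mismatch in 4 windows (11.4%), against 0.804%. In the motile axoneme list, 10 of 21 windows (47.6%) held it and 0 held it without mismatch. The half-site GTTGCC or GTTACC, which overlaps the X-box, was found on either strand in 16 windows (45.7%), against 18.6% of all windows. The 9 genes were Bbs1, Bbs4, Bbs7, Ift22, Ift52, Ift57, Mks1, Nphp4 and Ttc26. All but Ift52 and Ttc26 were called against radial glia in both ependymal groups; Ttc26 was called in LVW only and Ift52 in neither. A match is a match of letters and no evidence of binding. The stretches below are shown because they hold the 4 exact matches (Bbs7, Mks1, Ttc26 and the downstream match of Ift57) and, in Ift22, 2 matches with 1 mismatch each; they run 5′ to 3′ on the gene's strand, with the motif in capitals. Bbs7 lies on the minus strand at chr3:36613467-36613540, Ift22 on the plus strand at chr5:136908057-136908149, Ift57 on the plus strand at chr16:49699177-49699276, Mks1 on the plus strand at chr11:87853161-87853214 and Ttc26 on the plus strand at chr6:38381461-38381523.
Bbs7: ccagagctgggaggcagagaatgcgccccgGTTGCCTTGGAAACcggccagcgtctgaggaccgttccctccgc
Ift22: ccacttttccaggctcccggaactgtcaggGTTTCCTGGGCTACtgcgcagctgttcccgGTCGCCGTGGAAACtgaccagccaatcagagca
Ift57: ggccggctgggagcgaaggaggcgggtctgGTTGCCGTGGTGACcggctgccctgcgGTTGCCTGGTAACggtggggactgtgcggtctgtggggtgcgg
Mks1: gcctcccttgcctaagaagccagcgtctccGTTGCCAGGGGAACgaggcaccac
Ttc26: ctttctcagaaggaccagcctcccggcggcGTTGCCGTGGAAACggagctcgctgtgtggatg

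The exact matches began 121 bases before the start that the promoter window is built on in Bbs7 (position -121), 60 before it in Ift57 (-60), 33 before it in Ttc26 (-33) and 24 before it in Mks1 (-24). In Bbs7, Mks1 and Ttc26 the gene record begins further upstream than this start. The matches of Mks1 and Ttc26 lie inside the record. That of Bbs7 (36613497 to 36613510) lies just outside its edge at 36613492. The 4 exact matches had gaps of 1 or 2 bases between their parts. Promoters of Ift88, Ift172 and Ttc8, which were among the most changed genes, held no match in this window.

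The comparison of SC with LVW asks whether ependymal cells of both places carry this machinery at the same level. Of the 31 genes, 1 was higher in SC and 2 were lower, where 3.09% of all genes were higher and 4.95% lower, so the called share is near the background. The median difference was -0.20, against 0.05 over all genes. Bbs1 was the gene that was higher in SC, by 1.63 ± 0.38 (adjusted p = 0.0230) or 3.10-fold, and its 3 SC arrays lay above all LVW arrays. The call was lost in the fit to the 6 arrays alone (adjusted p = 0.120), and without LVW replicate 1 or any 1 of the SC replicates (adjusted p of 0.0519 to 0.0784).

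Ift20, the IFT-B subunit that also sits at the Golgi and sorts membrane cargo towards the cilium, had 12.29, 12.09 and 11.85 in LVW, 10.66, 10.78 and 10.43 in SC, 10.57, 10.62 and 10.90 in radial glia, and 10.07, 10.04 and 10.07 in neurospheres. By this probe LVW stood alone at the top, and SC overlapped radial glia. Ift20 was lower in SC by 1.46 (change -1.46 ± 0.25, adjusted p = 0.00449) and stayed called when any single array was left out. Its second kept probe had 8.98, 9.15 and 9.46 in LVW and 8.84, 9.02 and 8.93 in SC, a difference of -0.27 (adjusted p = 0.720), and the mean of both probes was not called (-0.87, adjusted p = 0.0734). The 2 probes thus disagree on whether Ift20 differs between SC and LVW. They also disagree against radial glia, where the second probe (8.45, 8.35 and 9.03 in radial glia) overlapped LVW with a change of 0.59 (adjusted p = 0.212), and between neurospheres and SC, where it gave -1.75 (adjusted p = 0.00292) and the first gave -0.56 (adjusted p = 0.122).

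Ift74 had 7.86, 7.34 and 6.93 in LVW, 6.36, 5.42 and 5.83 in SC, 4.97, 5.20 and 5.21 in radial glia, and 4.85, 4.85 and 5.71 in neurospheres. All 3 LVW arrays detected it but only 1 SC array did. It was lower in SC by 1.51 (change -1.51 ± 0.37, adjusted p = 0.0285), which includes SC arrays below detection. The call was lost without LVW replicate 1 or 2 or SC replicate 2 or 3 (adjusted p of 0.0593 to 0.114), and also in the fit to the 6 arrays alone (0.108), with the replicate block (0.0536) and without background correction (0.143). At an unadjusted limma p under 0.05, the main fit gave 1 higher and 5 lower genes between SC and LVW. Under median scaling, 0 of the 31 genes were called between SC and LVW with limma, and 1 was higher and 1 lower at an unadjusted p under 0.05. The other 28 genes missed the threshold, which does not show that they are equal. Ift57 and Ift80 were lower in SC without overlap (-1.03 ± 0.36, adjusted p = 0.116, and -1.17 ± 0.40, adjusted p = 0.108). Kif3a (-0.43) and Kif3b (-0.79) also lay lower without overlap, and Ift46 (1.31), Mks1 (0.81) and Bbs12 (0.64) higher. The size of the Ift46 difference includes LVW replicate 1 (4.80), which did not detect it, beside 7.64 and 7.34 on the other LVW arrays. The share of all genes without overlap between SC and LVW was not counted, so these cases are not a result about the list. The second probe of Ift57 read 10.16, 10.05 and 9.20 in LVW and 7.73, 7.16 and 7.29 in SC, a difference of -2.41 that passed the threshold in the fit over kept probes (adjusted p = 0.00173).

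In all, 8 of the tested genes had a second kept probe. In LVW against radial glia the second probe had the sign of the first in 8 of 8 genes and was also called in 6 of the 8 called. In SC against radial glia these counts were 7 of 8 and 3 of 5, and in neurospheres against SC 8 of 8 and 5 of 5. Between SC and LVW the second probe kept the sign in 8 of 8, but the single called gene among them, Ift20, was not called by it (0 of 1).

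**Figure D3:**
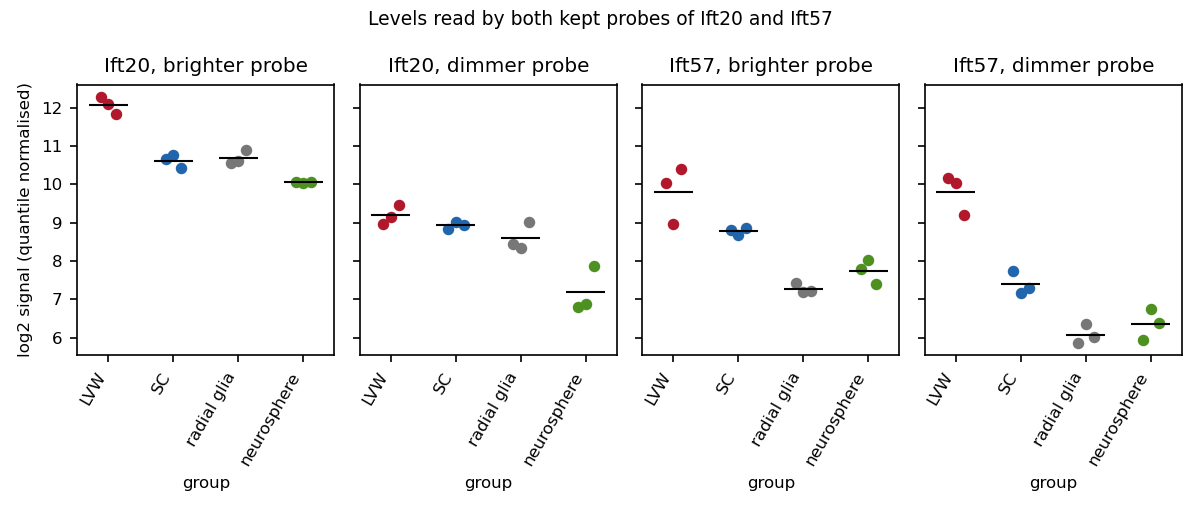
Quantile normalised log2 signal (vertical axis) of both kept probes of Ift20 and Ift57 in the 4 groups (horizontal axis); points are arrays and bars are group means. For Ift20 the brighter probe sets LVW apart from SC and the dimmer one does not, and for Ift57 the gap between LVW and SC is wider in the dimmer probe (-2.41) than in the brighter one (-1.03).

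The comparison of neurospheres with SC ependymal cells, their source, asks how cultured cells differ from them. 20 of the 31 genes were lower in neurospheres and 0 were higher, where 14.7% of all tested genes were lower and 15.5% higher, and the unadjusted limma p was under 0.05 for 25 lower and 0 higher genes. Without neurosphere replicate 3, 19 were lower. The median change was -1.75, against 0.08 over all genes, and in 27 genes neurospheres lay below SC without overlap (20.9% of all genes). By class, 9 of 13 IFT-B genes, 3 of 3 IFT-A genes, 6 of 8 BBSome genes and 2 of 3 transition zone genes were lower, with medians of -1.69, -2.50, -2.09 and -2.74. None of the 3 kinesin-2 genes (median -0.38) and not Arl3 (-0.63 ± 0.40, adjusted p = 0.265) was called. Median scaling shifted the change of all genes by 0.27 and left 13 of the genes called lower.

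Mks1 fell by 3.48 (change -3.48 ± 0.47, adjusted p = 0.000173) or 11.1-fold, although neurosphere replicate 3 stood above the other two. Ttc8 fell by 3.45 (-3.45 ± 0.32, adjusted p = 8.05e-06), which includes 1 neurosphere array below detection; its second probe, detected on all 12 arrays, gave -2.81 (adjusted p = 7.1e-05). Ift88 fell by 2.86 (-2.86 ± 0.34, adjusted p = 7.22e-05) and Bbs1 by 2.80 (-2.80 ± 0.38, adjusted p = 0.000190). In each of these 4 genes, all SC arrays lay above all neurosphere arrays. The IFT-A genes fell together: Ift122 by 2.55 (-2.55 ± 0.50, adjusted p = 0.00265), Ift140 by 2.50 (-2.50 ± 0.52, adjusted p = 0.00356) and Ift43 by 2.40 (-2.40 ± 0.30, adjusted p = 0.000111). Ttc30b did not pass the test (-1.59 ± 0.70, adjusted p = 0.110), and neither did Bbs5 (-1.0 ± 0.56, adjusted p = 0.205). In both, replicates 1 and 2 stayed near SC and replicate 3 was lower. Of the smaller drops, those of Ift46, Ift52 and Ift57 were lost when any 1 of at least 5 of the 6 arrays was left out, among them every SC array (adjusted p of up to 0.151, 0.110 and 0.119). Those of Ift80 (without SC replicate 1 or neurosphere replicate 1) and Bbs9 (without SC replicate 1 or 2) ended at adjusted p of up to 0.0536 and 0.0700.

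The same drop appeared in further genes of the machinery. Of 7 further IFT and dynein-2 genes, 4 were lower, including Wdr60 (-4.00), and of 17 further transition zone genes 11 were, including Tctn2 (-4.33), Tctn3 (-3.39) and B9d1 (-3.17). The further BBS-related list did not share it: 3 genes rose (Rab3ip by 3.64, Mkks by 1.70 and Cct3 by 1.50) and Wdpcp fell by 2.34 (change -2.34). The motile axoneme list fell in 14 of 15 genes with a median of -4.91, or -4.71 with genes at their bounds. Ependymal markers fell in 5 of 5, but Foxj1, Rsph1, Dnah5 and Tekt1 among them are also in the motile axoneme list. These 2 counts are therefore not separate readings. All 4 tested markers of dividing cells rose, with summed signals of 2823 to 7019 in neurospheres and 540 to 1070 in SC. The part of these shifts in the result was not tested.

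Neurospheres were last compared with radial glia, on the same arrays that served the comparisons above. Of the 31 genes, 1 was higher in neurospheres and 1 lower, where 9.23% of all genes were higher and 11.1% lower. At an unadjusted limma p under 0.05, the main fit gave 1 higher and 6 lower genes. The called count depended on the setting: array weights gave 2 higher and 11 lower, and median scaling gave 0 called with limma (1 higher and 1 lower at an unadjusted p under 0.05). The median change was -0.26, against -0.05 over all genes. Ift43 was lower by 1.74 (change -1.74 ± 0.30, adjusted p = 0.00172) or 3.34-fold, its groups did not overlap, and median scaling alone among the alternatives took it past the threshold (adjusted p = 0.0765). Ttc30b was higher by 2.23 ± 0.70 (adjusted p = 0.0441), but neurosphere replicate 3 at 6.42 lay below radial glia replicate 2 at 7.16, and the call was lost without radial glia replicate 1 or 3 or neurosphere replicate 1 or 2 (adjusted p of 0.153 to 0.181). Without neurosphere replicate 3, Ttc30b was higher by 2.99 (adjusted p = 0.00389) and 5 genes were lower: Ift43 (-1.85), Ift52 (-1.75), Bbs4 (-1.26), Ift122 (-1.07) and Ift27 (-1.02). Ift52 was detected on only 1 neurosphere array, so its change includes signal below detection. Ift88 differed by -0.16 ± 0.34 (adjusted p = 0.802), Ift172 by -0.26 ± 0.30 (adjusted p = 0.610) and Bbs7 by -0.19 ± 0.36 (adjusted p = 0.772). Of the other transition zone genes, Iqcb1 (-2.09) and Tctn2 (-1.48) were lower in neurospheres and Invs (1.42), a protein of the compartment just above the gate, was higher. Markers of dividing cells summed to 9531 to 10542 in radial glia, above all neurosphere arrays.

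**Figure D4:**
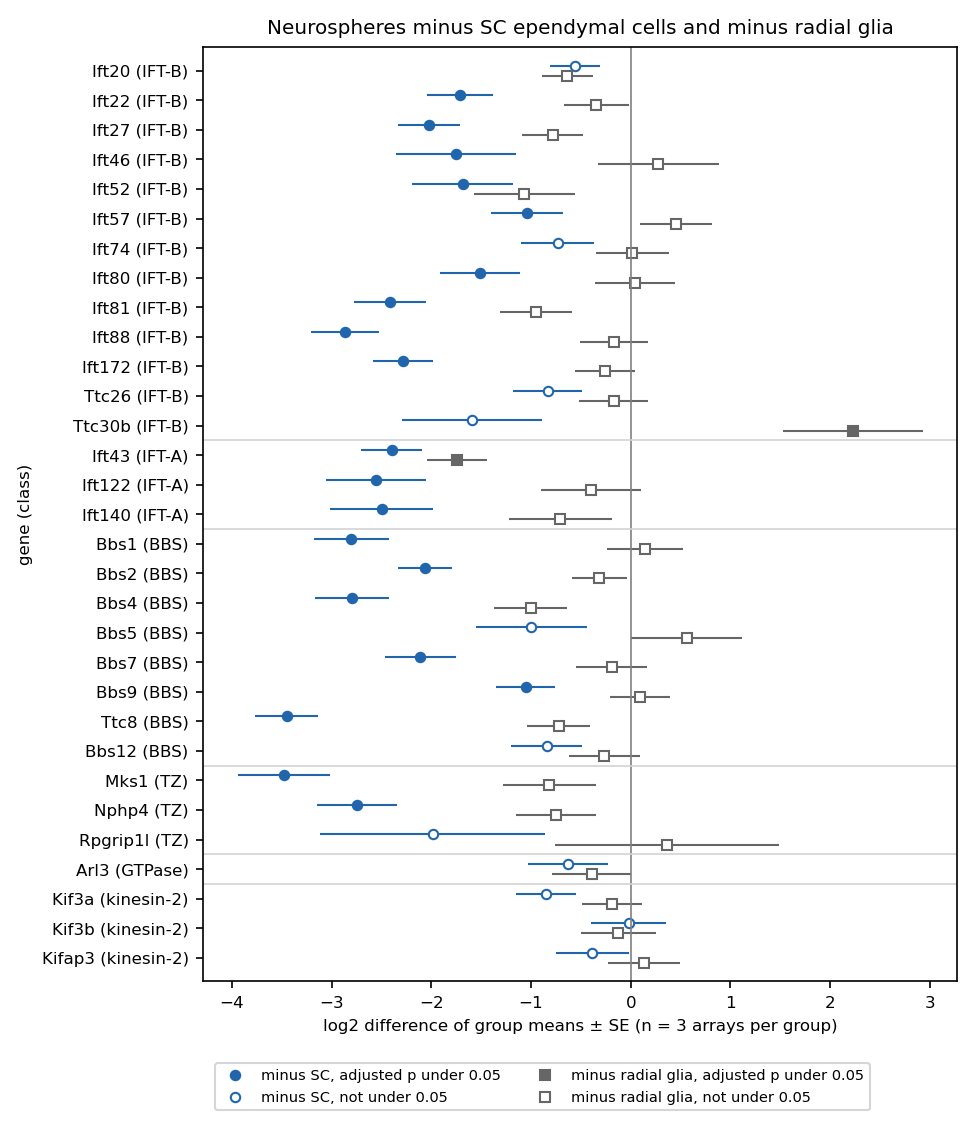
Log2 difference of neurospheres from SC ependymal cells (circles) and from radial glia (squares) with its SE (horizontal axis; n = 3 arrays per group) for each tested gene (vertical axis, by class), filled where the adjusted p is under 0.05. All 31 circles lie left of 0 and 20 are filled; the squares scatter around 0, with Ift43 filled on the left and Ttc30b on the right.

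In the order of group means, an ependymal group was highest for each of the 31 genes: LVW for 21 and SC for 10. The lowest group was neurospheres for 21 genes and radial glia for 10. Between both ependymal groups 3 genes were called, and between neurospheres and radial glia 2. The other genes missed the threshold in these comparisons, which does not show that their levels are equal.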

How the data were processed

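Total RNA of 12 samples was amplified in 2 rounds, labelled with biotin and hybridised to Illumina MouseWG-6 v1.1 arrays. For each array and each of 46632 probes, an intensity and a detection p-value were deposited, per the file headers. Some intensities lie below 0, so they are not signals before any background subtraction. The authors' deposited values are on a log2 scale; sorted values of the arrays matched within 0.000528, as quantile normalisation leaves them, and 2 probes had no value. The submitters' processing notes list BeadStudio and lumi, without their roles.

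The raw intensities were background corrected and quantile normalised with limma 3.58.1 (neqc, R 4.3.3), with an offset of 16 and with the level of negative controls derived from the detection p-values. Probes with a detection p-value under 0.01 on 3 or more arrays were kept (15760 probes), and 29976 of all probes had 1 gene symbol, 10 several and 16646 none. Where a gene had several kept probes, the one with the highest mean stands for it. A model of 4 groups on 12 arrays (lmFit and eBayes, two-sided) gave 5 comparisons, with p-values adjusted by Benjamini-Hochberg over 9526 genes. The groups share 1 spread per gene, while arrays of LVW differed from each other with an SD of 1.23 to 1.44 (log2) those of neurospheres with up to 1.27 and those of radial glia with 0.61 to 0.77, so standard errors of LVW and neurosphere comparisons can be too small. A bound sets the higher group's mean against a floor for each array of the lower group: its weakest detected probe, or the gene's own signal where that is stronger. The number of arrays limits the precision. No sample column was left unused (0).

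The 37 genes, the further lists and the markers were chosen with earlier results of these data known. Array values are given, per class, for up to 4 genes of largest mean absolute change against radial glia, for every gene called between SC and LVW, and for up to 4 called per direction in each neurosphere comparison; genes named otherwise were chosen after their values were seen. No probe on the array carries the symbol Bbs10, Arl6, Arl13b or Cep290, and these genes were not analysed here. The limma fit was also run on simulated gene levels, already normalised and with independent noise, and its outcome is not given here. Such a run cannot speak to the normalisation or to signals near the detection limit. Alternatives were 2 other background corrections (none; normexp without controls), the authors' values, median scaling, array weights, the mean over probes, 3 other probe filters, a replicate block, each array left out in turn, and fits to 6 arrays only.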

Additional observations from a re-analysis of the deposited data

Results flagged for a closer look

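For 3 of the 31 genes the change against radial glia differed between the ependymal groups, as tested by the SC to LVW comparison of the limma fit. Of all tested genes, 3.09% were higher and 4.95% lower in SC, so this count is near the background. The SC change minus the LVW change was -1.46 for Ift20 (adjusted p = 0.00449), -1.51 for Ift74 (adjusted p = 0.0285) and 1.63 for Bbs1 (adjusted p = 0.0230). In Ift20 and Ift74 all 3 SC arrays lay below all 3 LVW arrays, and in Bbs1 all 3 lay above. The second probe of Ift20 gave -0.27 (adjusted p = 0.720). The calls of Ift74 and of Bbs1 were each lost on leaving out any 1 of 4 arrays. Of the 3 calls, 0 held under every alternative.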

How the results depend on the processing

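No called change reversed under the alternatives run. Median scaling lowered the count of called genes in every comparison: 7 in place of 25 for LVW against radial glia, 6 in place of 19 for SC against radial glia, 0 in place of 3 for SC against LVW, 13 in place of 20 for neurospheres against SC and 0 in place of 2 for neurospheres against radial glia (1 higher and 1 lower at an unadjusted limma p under 0.05 in both comparisons with 0). At that unadjusted limit the main fit gave 1 higher and 5 lower for SC against LVW. It gave 1 higher and 6 lower for neurospheres against radial glia. The fit to the 6 arrays compared gave 1 called gene for SC against LVW and 1 for neurospheres against radial glia. The last comparison also had 1 called gene without background correction, with normexp, and with probes detected on at least 1 or on all 12 arrays, and 13 (2 higher, 11 lower) with array weights, whose estimate did not fully converge. Its split of 1 higher and 1 lower became 0 and 2 with the authors' values, without a filter and with the replicate block. Leaving out each array gave 22 to 26, 16 to 18, 1 to 3, 16 to 19 and 1 to 6 called genes in the 5 comparisons; the 1 between SC and LVW came without LVW replicate 1, SC replicate 2 or SC replicate 3, the 6 between neurospheres and radial glia came without neurosphere replicate 3, and the 1 without radial glia replicate 1 or 3 or neurosphere replicate 1 or 2. The other counts stayed within 1.5 times of those reported. The share of all genes called under each alternative is not given here, so these shifts in count are not results about the list. The called genes that stayed called under every alternative were 7 of 25, 6 of 19, 0 of 3, 13 of 20 and 0 of 2.

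With the replicate number as a block, 24, 19, 2, 18 and 2 genes were called. Deviations of same-numbered arrays correlated at -0.17 to 0.32, and in no comparison did every pair pass 0.1, so the numbers were not used as pairs.

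Genes near the detection limit (Ift22, Ift74, Ttc26) have changes that include undetected arrays. So do some changes of Ift46, Ift52, Ift80, Rpgrip1l, Ttc30b and Ttc8. With 3 arrays a group, small differences are left undetectable.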

Other observations

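For 3 of the most changed genes, the authors' log2 values gave the same directions. The change of Ift88 against radial glia was 2.12 in LVW and 2.15 in SC, and that of neurospheres against SC was -2.23. Ttc8 gave 1.76, 1.91 and -2.22, and Mks1 gave 1.75, 2.56 and -3.23.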
